A study of Mus musculus with 12 samples.

Results

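The macrophage and neutrophil transcripts described here are 10 genes chosen by name, Lyz2, C1qa, C1qb, C1qc, Csf1r, Adgre1, Cd68, S100a8, S100a9 and Mmp9, out of 17523 genes with values in sorted mouse CD4+ T cells. All 10 had values and all 10 passed the filter on low values, which left 15587 genes for testing. The cells were sorted from spleens of naïve (unimmunised) Gr/fr reporter mice on the C57BL/6 background, in which an iCre and BFP cassette follows the Csf2 coding sequence and Cre removes a stop cassette before eYFP at Rosa26. YFP therefore marks cells that express GM-CSF or once did, and any cell type with a history of GM-CSF expression carries it. Bulk RNA was sequenced from 4 sorted populations with 3 libraries each, naïve (CD44-) YFP-, naïve YFP+, effector memory (TEM, CD44hi) YFP- and TEM YFP+. All 4 groups came from mice of the same genotype without treatment, the study's methods give mice of 2 to 3 months for its sorts and 3 mice for the sequencing, and the methods for these libraries state CD4, CD44 and YFP among the sorting markers. Nothing in the labels or methods says which libraries came from the same mouse, so p-values measure the spread between these libraries.

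Macrophages engulf dead cells and debris. Their genes include lysosomal proteins, the receptor for the growth factor CSF1 and, in tissue macrophages such as those of the splenic red pulp, the 3 chains of C1q, which opens the classical complement pathway. Neutrophils store S100A8 and S100A9, the subunits of calprotectin, in their cytosol and keep MMP9, a gelatinase, in granules. Not every one of these genes belongs to one cell type: monocytes and some dendritic cells also use Lyz2, Csf1r, Adgre1 and Cd68, and activated T cells can make MMP9. In bulk RNA, fewer cells of a type and less RNA per cell cannot be told apart.

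The deposited values are read counts scaled by a size factor per library, called normalized counts below, and the libraries held 40974124 to 57822269 reads on genes. Cd44, the transcript behind a sorting marker, reached 21778 normalized counts or more in every TEM library and 3372 or less in every naïve one. Csf2, the GM-CSF gene, was at 116 ± 52.1 normalized counts (SD, n = 3) in TEM YFP+ and at 1.75 ± 0.90 in TEM YFP-. Cd3e and Cd4 were at 30224 normalized counts or more in all 12 libraries. One library stood apart before any comparison. In naïve YFP+ replicate 2, each of the 10 transcripts was higher than in the other 5 naïve libraries, by 1.81 times the next highest value for Cd68 and up to 9.89 times for Mmp9. Naïve YFP- replicate 2 also held the highest value of its group for each of the 10. Both had the lowest summed levels of 8 T cell genes among naïve libraries, 222861 and 227507 normalized counts against 266338 to 311776 in the others. Each comparison of the 10 is therefore given with and without naïve YFP+ replicate 2.

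**Figure D1:**
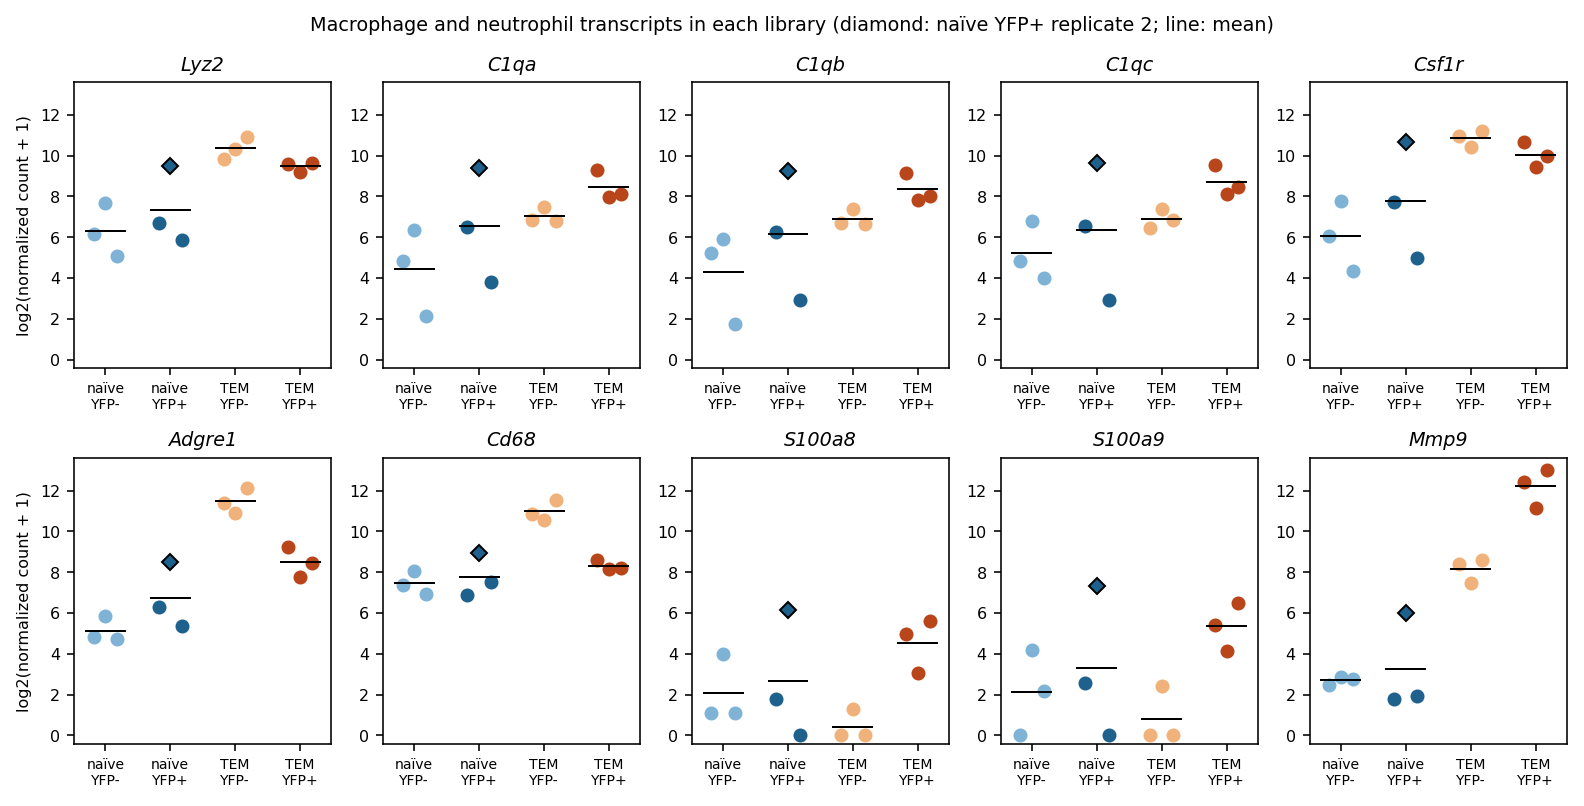
Each panel plots 1 transcript as log2(normalized count + 1) in the 12 libraries by group, with a line at the group mean and a diamond for naïve YFP+ replicate 2. Mmp9 was highest in the 3 TEM YFP+ libraries, Adgre1 and Cd68 were highest in the 3 TEM YFP- libraries, and the diamond lies above all other naïve points in every panel.

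The 10 transcripts together summed to 6795 to 12459 normalized counts in TEM YFP-, 4856 to 11755 in TEM YFP+ and 228 to 1038 in naïve YFP-. In naïve YFP+ the 3 libraries summed to 779, 5516 and 338 normalized counts, so that replicate 2 was inside the range of TEM YFP+. Summed levels thus overlapped between TEM YFP- and TEM YFP+, but the makeup of the sum differed. Per kilobase of exon, the order of levels in TEM YFP- was Cd68 (1682 normalized counts per kb), Lyz2 (1043), Adgre1 (934), Csf1r (333), C1qa (130), C1qb (112), Mmp9 (85.4), C1qc (63.9), S100a9 (2.84) and S100a8 (0.712). Neighbours in this order had overlapping libraries except where Adgre1 stood above Csf1r, Csf1r above C1qa and C1qc above S100a9. In TEM YFP+ the order per kilobase was Mmp9 (1515), Lyz2 (548), C1qa (367), C1qb (324), Cd68 (255), C1qc (237), Csf1r (192), Adgre1 (120), S100a9 (94.1) and S100a8 (41.3), and of all neighbours only Mmp9 and Lyz2 did not overlap. Mmp9 thus moved from the seventh to the first place in the level per kilobase, and Adgre1 from the third to the eighth. In both naïve groups Mmp9 was last, at 1.58 normalized counts per kb in YFP- and 6.43 in YFP+, and all neighbours overlapped.

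The first comparison set TEM cells with a history of GM-CSF expression beside TEM cells without YFP. Mmp9 rose and Adgre1 and Cd68 fell in TEM YFP+, while the C1q chains and both calprotectin subunits had higher values and Lyz2 and Csf1r lower values without passing the test. Calls needed 2 things in a limma model of log2(normalized count + 1), an adjusted p (Benjamini-Hochberg, over all genes) of no more than 0.05 and a log2 fold change of at least 1 in either direction. By this rule 3 of the 10 were called, beside 4.81% of the 15587 genes. The median log2 fold change of the 10 was 1.42, beside -0.01 over all genes. In 9 of the 10, all but Csf1r, the values of the 2 groups did not overlap, beside 25% of all genes.

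Mmp9, on chromosome 2 (164940326-164955850, GRCm38.p6), encodes matrix metalloproteinase 9, which cuts denatured collagen and basement membrane. It stood at 335, 179 and 392 normalized counts in the 3 TEM YFP- libraries and at 5501, 2304 and 8277 in the 3 TEM YFP+ libraries. The lowest YFP+ value, in replicate 2, was well above the highest YFP- value, in replicate 3. The difference was 4.04 ± 0.89 on the log2 scale (SE, n = 3 per group), a fold of 16.4, with an adjusted p of 0.0148 in limma. Leaving out 1 TEM library kept the log2 fold change between 3.63 and 4.55, and the call was kept in 3 of 6 cases. It was lost, with limma adjusted p of 0.0632 without TEM YFP- replicate 2, 0.0583 without TEM YFP+ replicate 1 and 0.0740 without TEM YFP+ replicate 3. Without naïve YFP+ replicate 2 the adjusted p was 0.000171.

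Adgre1, on chromosome 17 (57358581-57483529), encodes the surface receptor F4/80, the usual marker of mouse macrophages. Its levels were 2691, 1939 and 4439 normalized counts in TEM YFP- and 604, 217 and 349 in TEM YFP+. The 3 YFP+ values lay under all 3 YFP- values, and the log2 fold change was -2.99 ± 0.67 (adjusted p = 0.0153, limma). This call was lost without TEM YFP- replicate 1 (adjusted p = 0.0519), TEM YFP- replicate 3 (0.0839), TEM YFP+ replicate 2 (0.0591) or TEM YFP+ replicate 3 (0.0539), each in the same limma model, and was kept without naïve YFP+ replicate 2 (0.00105). Gene models Gm18069 and Gm20243 overlap Adgre1.

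Cd68, on chromosome 11 (69664213-69666170), encodes a glycoprotein of the lysosomal membrane of macrophages and other phagocytes. It was at 1832, 1527 and 2986 normalized counts in TEM YFP- and at 385, 283 and 295 in TEM YFP+. The groups did not overlap, the YFP+ libraries were close to each other, and the log2 fold change was -2.67 ± 0.45 (adjusted p = 0.00269, limma). Cd68 kept its call without any 1 of the 6 TEM libraries and without naïve YFP+ replicate 2.

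Lyz2, on chromosome 10 (117277541-117282272), encodes the lysozyme of macrophages, monocytes and neutrophils. Its values of 926, 1259 and 1933 normalized counts in TEM YFP- all exceeded the 769, 587 and 808 of TEM YFP+, with a log2 fold change of -0.87 ± 0.79 and an adjusted p of 0.71 in limma. The near-identical Lyz1 could share reads with it and was at 47.5 normalized counts on average in TEM YFP- and 21.5 in TEM YFP+. Csf1r, the receptor for CSF1 that macrophages need to survive, was at 2003, 1373 and 2384 normalized counts in TEM YFP- and at 1647, 690 and 996 in TEM YFP+. Those groups overlapped, through TEM YFP+ replicate 1, and the log2 fold change of -0.84 ± 1.12 did not pass the test (adjusted p = 0.827, limma). Csf1r overlaps the gene models Mir6983 and Gm52352. Hence the 4 surface and lysosomal genes all had lower means in TEM YFP+, by very unequal amounts, and 2 of them were called.

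The 3 C1q chains had the opposite direction. Their genes lie side by side on chromosome 4, C1qb at 136880126-136886200, C1qc at 136889801-136892936 and C1qa at 136895916-136898844, and their protein products assemble into 1 molecule. C1qa was at 114, 179 and 111 normalized counts in TEM YFP- and at 619, 249 and 279 in TEM YFP+. C1qb was at 103, 165 and 99.8 in TEM YFP- and at 571, 226 and 260 in TEM YFP+. C1qc was at 87.8, 168 and 114 in TEM YFP- and at 741, 276 and 354 in TEM YFP+. In each chain the highest YFP- library, replicate 2, stayed under the lowest YFP+ library, also replicate 2, and TEM YFP+ replicate 1 was the highest of all TEM libraries. The log2 fold changes were 1.41 ± 1.20 for C1qa, 1.43 ± 1.33 for C1qb and 1.80 ± 1.25 for C1qc, and none passed the test (adjusted p = 0.682, 0.72 and 0.574, limma). These standard errors take in the spread between naïve libraries. In a fit to the 6 TEM libraries alone, the SE of C1qc was 0.39 and it was called (adjusted p = 0.0266), while C1qa and C1qb were at 0.0562 and 0.0561.

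The ratios of the chains to each other were alike within TEM YFP+ and higher in TEM YFP-. C1qa over C1qc ran from 0.788 to 0.899 and C1qb over C1qc from 0.737 to 0.816 in TEM YFP+, and naïve YFP+ replicate 2 had 0.842 and 0.764. TEM YFP- gave 0.973 to 1.30 and 0.875 to 1.17, above both ranges of TEM YFP+, and naïve YFP- replicate 2 gave 0.755 and 0.549. RefSeq promoter sequences of GRCm38.p6, 250 bases before to 50 bases after each gene start, were matched for 6 of the 10 genes, C1qb, C1qc, Cd68, Lyz2, S100a8 and S100a9. The 250 bases before the start were searched on both strands for GAGGAA, a purine-rich core of the kind that the myeloid factor PU.1 and other ETS factors bind. It was found in 4 of the 6 (S100a8, C1qb, C1qc and Cd68), beside 23.3% of 32851 promoters. The windows of C1qb and C1qc are shown because the 2 chains had like values library by library, with the match or its reverse complement TTCCTC in capitals and all sequence given along the gene's own strand, which is the minus strand for both.
C1qb, chr4:136886213-136886242: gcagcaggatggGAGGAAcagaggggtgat
C1qc, chr4:136893090-136893119: gacggcagacacTTCCTCattttggcacac
The match began at -30 from the start of C1qb and at -193 from the start that the promoter table gives for C1qc, 136892914, which lies inside the span of the gene given above. The window of Cd68, also on the minus strand, is shown because this gene was in the opposite direction to the chains and held the same letters.
Cd68, chr11:69666378-69666407: tttcttaccaatGAGGAAagggcttcccat
Promoters of genes with differences of opposite sign thus held the same 6 letters. A match describes the sequence and is not a bound site.

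S100a8 and S100a9, neighbours on chromosome 3 (90669071-90670034 and 90692630-90695721), were the scarcest of the 10 in TEM cells. S100a8 was at 0, 1.48 and 0 normalized counts in TEM YFP- and at 30.3, 7.25 and 48.5 in TEM YFP+. No TEM YFP- library held more than 2 of its reads, so the fold is given only as a bound: against 3 reads in each TEM YFP- library, S100a8 was at least 11.1-fold higher in TEM YFP+. S100a9 was at 0, 4.45 and 0 normalized counts in TEM YFP- and at 41.5, 16.6 and 89.4 in TEM YFP+. The groups did not overlap for either gene, and neither was called over the 12 libraries, with adjusted p of 0.103 for S100a8 and 0.128 for S100a9 in limma. Both were called without naïve YFP+ replicate 2 (adjusted p = 0.017 and 0.0267) and in the fit to the 6 TEM libraries (0.0148 and 0.015). The 2 windows of the S100a8 promoter, printed along the plus strand, hold the reverse complement, so that the letters searched are on the minus strand, and are shown because S100a9, its partner with like values, had none in its own.
S100a8, chr3:90668889-90668918: caacactcccacTTCCTCagactcagaaat
S100a8, chr3:90669023-90669052: gctggccaagctTTCCTCtataaaagcagc
They began at -170 and -36 from the gene start. No match says only that these letters were absent from the window of S100a9.

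Leaving naïve YFP+ replicate 2 out of the fit changed no TEM value and narrowed the errors, so that 5 of the 10 were called in TEM YFP+ against TEM YFP-, Mmp9, S100a8 and S100a9 higher and Adgre1 and Cd68 lower, beside 5.65% of all genes. The fit to the 6 TEM libraries called 6, the same 5 and C1qc, beside 6.36% of all genes.

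**Figure D2:**
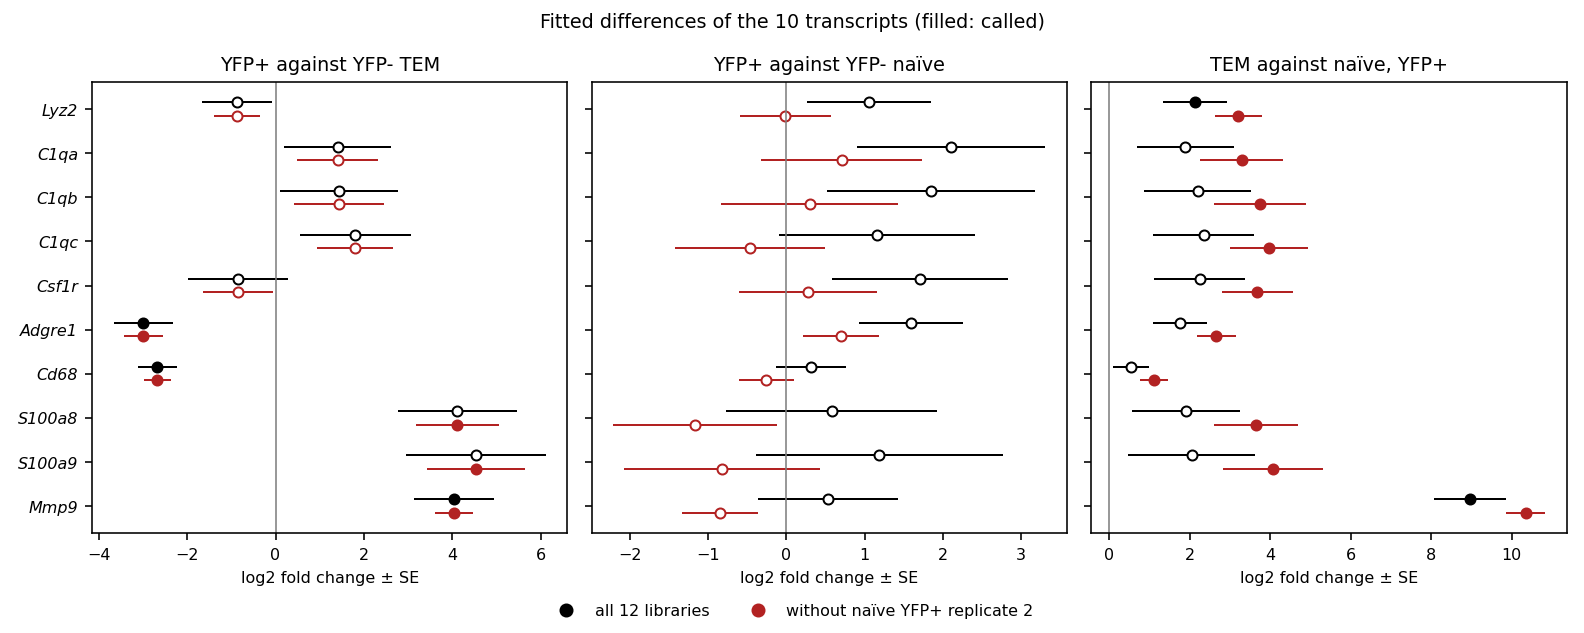
Points are log2 fold changes with bars of 1 SE for each transcript in 3 comparisons, black for all 12 libraries and red without naïve YFP+ replicate 2, filled where called. Removing the library left the TEM values in place, moved 6 of the 10 naïve values to below 0, and turned 2 called transcripts into 10 in TEM YFP+ against naïve YFP+.

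The naïve populations were compared in the same way. None of the 10 was called between naïve YFP+ and naïve YFP- in limma, edgeR or DESeq2, where limma called 0.00642% of all genes, and 1 of the 10, Adgre1, had an unadjusted p under 0.05. The groups overlapped for all 10 transcripts, and 5.38% of all genes did not overlap. The median log2 fold change of the 10 was 1.18 beside 0.01 over all genes, and -0.13 without naïve YFP+ replicate 2. C1qb shows the pattern, with 36.9, 59.4 and 2.30 normalized counts in naïve YFP- and 76.7, 603 and 6.51 in naïve YFP+. Csf1r was at 65.7, 220 and 19.6 in naïve YFP- and at 209, 1601 and 30.7 in naïve YFP+. Replicate 3 was the lowest of both groups for these genes, so that libraries with the same number ranked alike. Without replicate 2 of naïve YFP+, the log2 fold change went from 1.85 to 0.30 for C1qb and from 1.71 to 0.28 for Csf1r, and it turned below 0 for Lyz2 (-0.014), C1qc (-0.46), Cd68 (-0.26), S100a8 (-1.17), S100a9 (-0.82) and Mmp9 (-0.85). None passed the test there either.

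Naïve YFP+ replicate 2 itself can be set beside the TEM libraries. Its 714 normalized counts of Lyz2, 1601 of Csf1r and 367 of Adgre1 lay within the range of the 3 TEM YFP+ libraries. Its levels of the other macrophage genes, 664 for C1qa, 603 for C1qb, 789 for C1qc and 487 for Cd68, and of S100a8 (69.9) and S100a9 (158) lay above that range. Mmp9, at 63.0, lay far below it. The ratio of Mmp9 to C1qc was 0.080 in this library and 7.42, 8.33 and 23.4 in the 3 TEM YFP+ libraries, and the ratio of Mmp9 to the sum of S100a8 and S100a9 was 0.276 against 76.6, 96.7 and 60.1. High C1q and calprotectin thus stood beside little Mmp9 in the one and beside much Mmp9 in the others. The summed haemoglobin, erythroid and platelet genes were read beside these levels, at 3716 normalized counts in naïve YFP+ replicate 2, 79.1 and 900 in the other naïve YFP+ libraries, 789 to 3180 in TEM YFP+, 89.6 to 1307 in TEM YFP- and 48.4 to 365 in naïve YFP-, and their part in the results was not tested. The B cell list summed to 2003 in naïve YFP+ replicate 2 against 567 to 1348 in the other naïve libraries, and the conventional dendritic cell list to 2283 against 553 to 1174, whose part was not tested either.

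TEM and naïve cells were compared within each YFP state. In YFP- cells, 5 of the 10 rose in TEM, beside 21.2% of all genes called higher, and none fell. Adgre1 went from 27.6, 56.2 and 25.3 normalized counts in naïve YFP- to at least 1939 in TEM YFP-, which on the log2 scale was 6.34 ± 0.67 (limma, adjusted p = 6.41e-06). Mmp9 went from 4.61, 6.37 and 5.76 to 179 and above, or 5.46 ± 0.89 on the log2 scale (limma, adjusted p = 0.000261). Csf1r (4.80 ± 1.12), Lyz2 (4.06 ± 0.79) and Cd68 (3.53 ± 0.45) were the other 3. C1qa (2.59) and C1qb (2.61) did not overlap between the groups and were not called (adjusted p = 0.0932 and 0.123, limma). With replicate number as a block, which paired these groups, both were called (0.0285 and 0.0434), and so they were without naïve YFP+ replicate 2 (0.0337 and 0.0493), where 7 of the 10 were called beside 21.7% of all genes higher. In 7 of the 10 the groups did not overlap, beside 59% of all genes. S100a8 and S100a9 overlapped, at 1.15, 14.9 and 1.15 and at 0, 17.0 and 3.46 normalized counts in naïve YFP-.

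In YFP+ cells the answer turned on 1 library. Over all 12 libraries 2 of the 10 were called higher in TEM, beside 16.3% of all genes, and the groups did not overlap for 1, Mmp9, beside 48.7% of all genes. Mmp9 was at 2.47, 63.0 and 2.79 normalized counts in naïve YFP+, or 8.96 ± 0.89 below TEM YFP+ on the log2 scale (limma, adjusted p = 6.29e-06). Lyz2 was the other, at 103, 714 and 57.7 normalized counts in naïve YFP+, with 2.13 ± 0.79 on the log2 scale (limma, adjusted p = 0.0477). Its call was lost without naïve YFP+ replicate 1 (adjusted p = 0.136) or 3 (0.195) and without TEM YFP+ replicate 1 (0.104), 2 (0.0737) or 3 (0.111), with edgeR (1.30, 0.216) and DESeq2 (1.31, 0.269), with a prior count of 0.1 (0.0534) and in the 6 libraries alone (0.0771). Without naïve YFP+ replicate 2, all 10 were called higher, beside 18.3% of all genes, and all 10 groups were apart, beside 58.7% of all genes. The log2 fold changes were then 10.34 for Mmp9, 4.06 for S100a9, 3.97 for C1qc, 3.74 for C1qb, 3.68 for Csf1r, 3.65 for S100a8, 3.29 for C1qa, 3.20 for Lyz2, 2.66 for Adgre1 and 1.11 for Cd68. Both groups of YFP+ cells and both groups of YFP- cells enter the comparisons by YFP state as well, so the values share libraries.

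Whether the YFP difference itself differed between TEM and naïve cells was tested with an interaction term, which called 2 of the 10, beside 3.1% of all genes. Adgre1 had a log2 fold change of -2.99 in TEM and 1.59 in naïve cells, an interaction of -4.59 ± 0.94 (adjusted p = 0.0191, limma). Cd68 had -2.67 in TEM and 0.32 in naïve cells, an interaction of -2.99 ± 0.63 (adjusted p = 0.0216, limma). Without naïve YFP+ replicate 2, 3 were called, beside 2.73% of all genes, and the interactions were -3.69 for Adgre1 (adjusted p = 0.0112), -2.41 for Cd68 (0.0163) and 4.89 for Mmp9 (0.00394, against 0.222 with the library). Without naïve YFP- replicate 1 or 3 neither Adgre1 (adjusted p = 0.0507 and 0.0526) nor Cd68 (0.0545 and 0.0593) was called. Without TEM YFP- replicate 3 both were also lost (0.0635 and 0.0705), and Cd68 was lost without TEM YFP- replicate 1 (0.0502) or TEM YFP+ replicate 3 (0.0541). In pairs of libraries with the same number, Lyz2, Csf1r and Adgre1 were lower in YFP+ in 3 of 3 TEM pairs and higher in YFP+ in 3 of 3 naïve pairs, and for Lyz2 (adjusted p = 0.63) and Csf1r (0.683) the interaction did not pass the test in limma.

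Ratios between the transcripts set the TEM groups apart where their sum did not. The sum of Lyz2, Csf1r, Adgre1 and Cd68 was 24.5, 11.9 and 36.1 times the sum of the C1q chains in the TEM YFP- libraries and 1.76, 2.37 and 2.74 times in TEM YFP+. Naïve YFP+ replicate 2 gave 1.54, just under TEM YFP+, and the other naïve libraries ran from 1.95 to 11.9. Adgre1 over C1qc was 30.7, 11.5 and 38.9 in TEM YFP-, 0.814, 0.787 and 0.987 in TEM YFP+ and 0.465 in naïve YFP+ replicate 2. On these ratios TEM YFP- was apart from TEM YFP+ in every library, and the high naïve library was on the side of TEM YFP+. The ratios were computed after the values had been seen and carry no test.

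**Figure D3:**
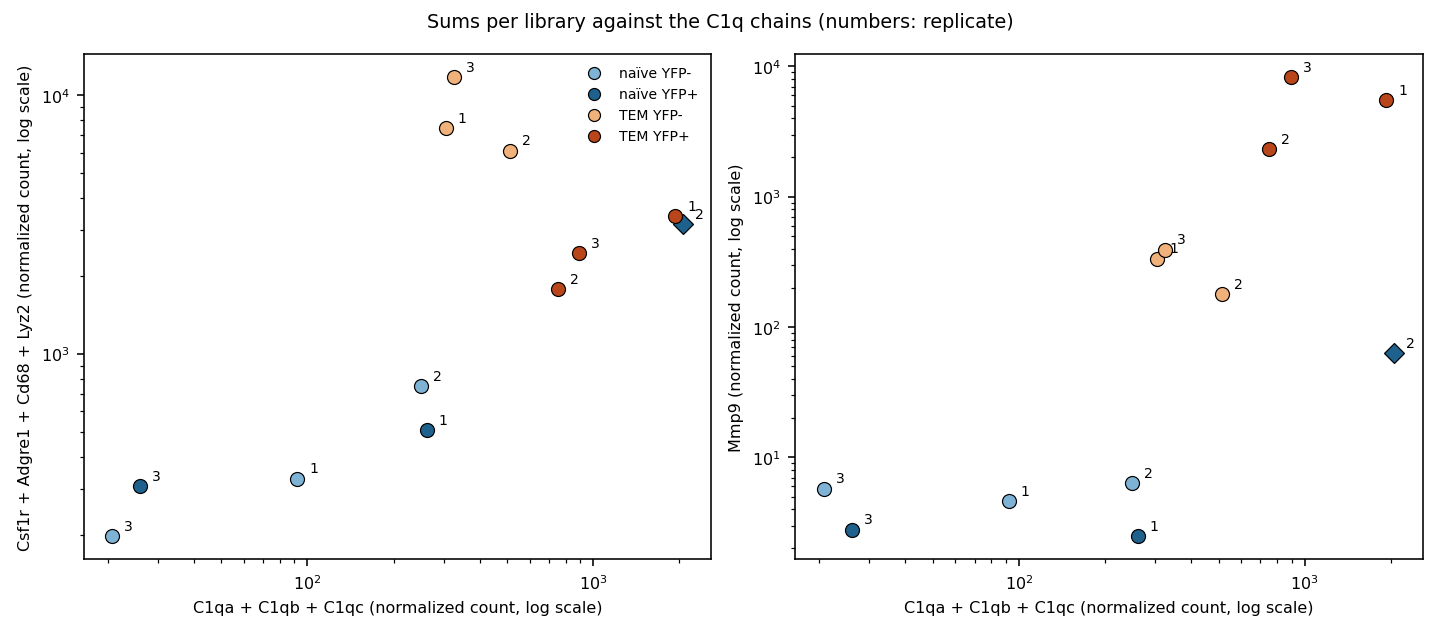
The summed C1q chains (x axis, normalized counts, log scale) are plotted against the summed Lyz2, Csf1r, Adgre1 and Cd68 (left) and against Mmp9 (right), both on log scales, 1 point per library numbered by replicate. TEM YFP- has the highest sums on the left, at 11.9 to 36.1 times its C1q sum. Naïve YFP+ replicate 3 has low sums and a ratio close to the lowest of these, 11.86 beside 11.91 in TEM YFP- replicate 2. Naïve YFP+ replicate 2 (diamond) lies beside TEM YFP+ on the left and below it on the right.

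Further genes of these cell types were read from lists of 25 macrophage, 13 monocyte and 22 neutrophil genes that hold none of the 10. Of 24 macrophage genes tested, none was called higher in TEM YFP+ against TEM YFP- and 4 were called lower, with a median log2 fold change of 0.93. In this comparison 1.3% of all genes were called higher and 3.5% lower, and without naïve YFP+ replicate 2 these were 1.51% and 4.13%. Without that library Cd163 (2.62, adjusted p = 0.00191, limma) was called higher and Cybb (-1.24, adjusted p = 0.0378, limma) joined the lower genes, which made 1 and 5 of the 24. The 4 called lower over the 12 libraries were Tyrobp (-3.72) and Fcer1g (-2.74), which encode signalling adaptors of myeloid receptors, Itgam (-3.55), which encodes CD11b, and Sirpa (-3.26), which encodes the receptor for CD47. Sirpa, among the 4 most abundant of the list, was at 7244, 4135 and 10458 normalized counts in TEM YFP- and at 1201, 362 and 819 in TEM YFP+. Conventional dendritic cell genes, given below, were lower in the same TEM YFP+ libraries, and the part of dendritic cells in these 4 calls was not tested. Over the 12 libraries the other 20 genes did not pass the test, with values up to 2.72 for Mrc1. Of these 20, Spic, Timd4 (-0.47), Axl, Aif1 (-0.77) and Cybb were below 0 and the rest above 0. Of the red pulp macrophage genes, Slc40a1 was at 2.17 ± 1.40 (SE). Spic was at -0.52 ± 1.30, an error larger than the value, so its sign is not settled. These examples were chosen after their values were seen. Apoe and Axl, also among the most abundant, had values near 0 (0.02 and -0.15), and Cybb did not pass the test over the 12 libraries (adjusted p = 0.199, limma). The summed list was at 25569 to 33599 normalized counts in TEM YFP-, 11147 to 18403 in TEM YFP+, 939 to 2325 in naïve YFP- and 990, 2232 and 12275 in naïve YFP+, the last in replicate 2. In TEM against naïve YFP+ cells 5 of the 24 were called higher beside 16.3% of all genes, which is near that background, and without naïve YFP+ replicate 2 it was 20 beside 18.3%.

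Of 13 monocyte genes, 1 rose and 1 fell in TEM YFP+ against TEM YFP-, with a median of -0.53, and the counts were equal without naïve YFP+ replicate 2. Ccr2, a chemokine receptor of monocytes and of memory T cells, was at 1955, 1747 and 1804 normalized counts in TEM YFP- and at 7276, 4476 and 7710 in TEM YFP+ (1.78, adjusted p = 0.0477, limma). Ifitm3, an interferon-induced membrane protein, fell by 3.07 on the log2 scale. The other abundant ones, Nr4a1 (-0.53), Ms4a6c (-1.06) and Plac8 (-1.24), did not pass the test. The summed monocyte list was at 13475 to 17420 normalized counts in TEM YFP- and 12882 to 15219 in TEM YFP+, which overlap. Nr4a1 and Ccr2 made up most of this sum in TEM YFP+. Nr4a1 was at 4036, 6020 and 6320 normalized counts in TEM YFP- and at 2243, 5568 and 4090 in TEM YFP+. It was also at 2905 to 6821 in the naïve libraries. The overlap of the sums therefore cannot show whether monocyte RNA differed.

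Few neutrophil genes were called. Of the 22, 18 had values and 13 passed the filter, and 6 of the 18 held 3 reads or fewer in each TEM YFP- library, as did 3 in TEM YFP+. In TEM YFP+ against TEM YFP- none rose and 1 fell, Cd177, a neutrophil surface protein, from 21.3, 8.89 and 22.4 normalized counts to 7.08, 3.11 and 6.65 (-1.45, adjusted p = 0.0498, limma), and the median of the 13 was 0.88. Cd177 did not follow the other neutrophil genes, at 114 to 152 normalized counts in the naïve libraries. It was at 134 in naïve YFP+ replicate 3, where Csf3r and Cxcr2 were at 0. G0s2 was likewise at 140 to 199 in the naïve libraries and at 1.64 to 10.4 in the TEM libraries. Without naïve YFP+ replicate 2 the call of Cd177 was lost (adjusted p = 0.0557, limma), Fpr1 (2.69, 0.0447), a receptor for bacterial peptides, was called higher and Trem1 (-3.25, 0.0354), an activating receptor of neutrophils and monocytes, was called lower. The other 3 abundant genes of the list were Padi4 (-0.24), Il1b (-2.56) and G0s2 (0.88), none of which passed the test. The granule genes Ngp and Camp were at 32.4 and 5.06 normalized counts in TEM YFP+ replicate 1 and at 0 in the other 2 TEM YFP+ libraries, and Mpo did not exceed 3.11 in any library. The summed list was at 472 to 1403 normalized counts in TEM YFP- and 404 to 811 in TEM YFP+, and those ranges overlapped. Padi4 and Il1b made up most of this sum in TEM YFP-. Padi4 was at 205, 978 and 122 there and at 192, 698 and 111 in TEM YFP+. The scarce Retnlg, Lcn2, Fpr1 and Mmp8 were higher in TEM YFP+ without overlap, and Il1b, Trem1 and Cd177 were lower without overlap. Over all genes, 25% did not overlap in this comparison. Some of these gaps were small, with a highest TEM YFP- value of 4.08 and a lowest TEM YFP+ value of 5.06 for Mmp8, and 2.22 and 3.80 for Lcn2. The sum therefore cannot show whether neutrophil RNA differed, and its part in the 16.4-fold difference of Mmp9 was not tested. Csf3r and Cxcr2, receptors of neutrophils for G-CSF and chemokines, were at 191 and 40.3 normalized counts in naïve YFP+ replicate 2 and at no more than 26.5 and 8.49 in the other naïve libraries. Csf3r was at 8.20 to 34.6 normalized counts in TEM YFP- and at 33.1 to 103 in TEM YFP+, groups that overlapped, and its log2 fold change of 1.75 did not pass the test (adjusted p = 0.671, limma). Ly6g, Elane, Prtn3 and Ctsg were not analysed here. The label of neutrophil transcripts thus rested on few reads in TEM cells, Mmp9 apart.

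**Figure D4:**
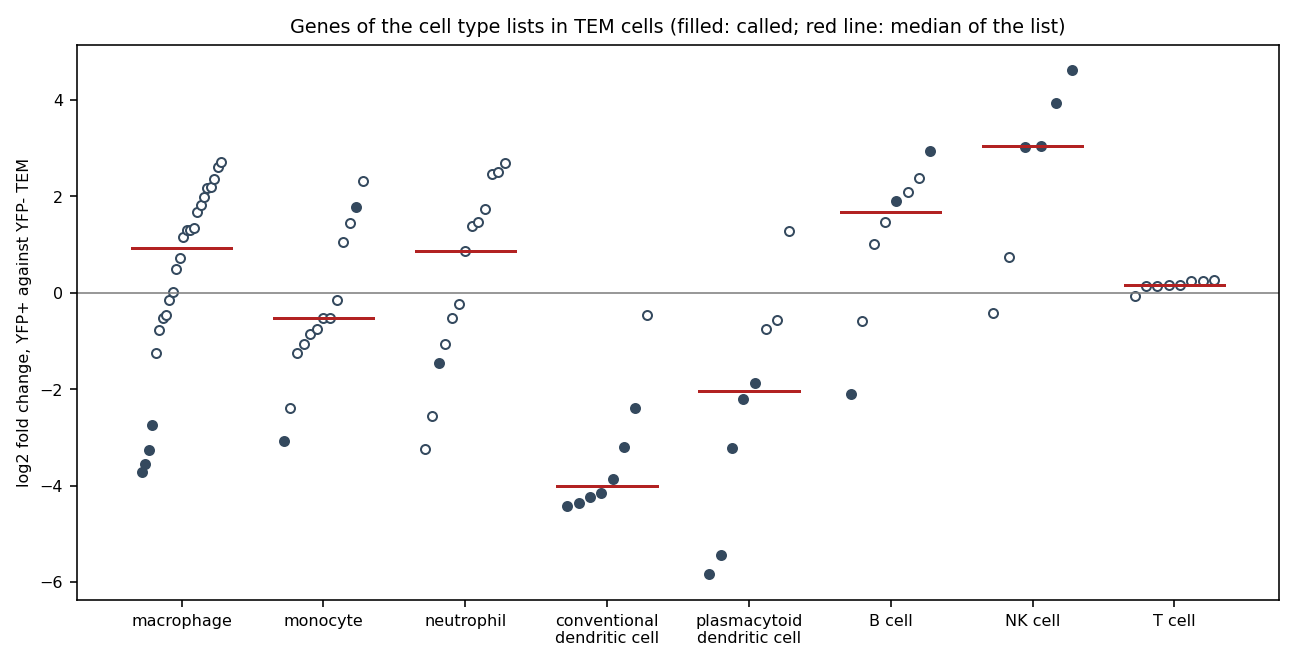
Each point is the log2 fold change of 1 gene in TEM YFP+ against TEM YFP-, sorted within its cell type list, filled where called, with a red line at the list's median. The macrophage list is spread from -3.72 to 2.72, the conventional dendritic cell list has its median at -4.01 and the T cell list is near 0.

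Genes of other cells moved in the same comparison. Of 8 conventional dendritic cell genes, 7 fell in TEM YFP+ against TEM YFP-, with a median of -4.01 over the 8, and the summed list was at 44650 to 90685 normalized counts in TEM YFP-, 2450 to 6210 in TEM YFP+, 553 to 1174 in naïve YFP- and 756 to 2283 in naïve YFP+. Itgax, which encodes CD11c, was at 7956, 5454 and 10593 normalized counts in TEM YFP- and 607, 245 and 543 in TEM YFP+, so that it was high in the same libraries as Adgre1 and Cd68. Of 8 plasmacytoid dendritic cell genes 5 fell, with a median of -2.03, and the summed list was at 12989 to 22018 in TEM YFP- and 7018 to 9885 in TEM YFP+. Ccr9, Runx2 and Bst2, none of them called, made up most of the TEM YFP+ sum, and Bst2 was at 1968 to 2243 in the naïve libraries. Siglech, which was called, went from 3367, 1412 and 3263 normalized counts in TEM YFP- to 118, 26.9 and 55.1 in TEM YFP+, so the sum understates its fall. The part of either cell type in the lower Adgre1 and Cd68, and in the 4 genes of the macrophage list called lower, was not tested. Of 6 NK cell genes 4 rose, with a median of 3.04, and of 8 B cell genes 2 rose and 1 fell, with a median of 1.69. Prf1, among the NK cell genes that rose, was at 2632 to 4279 normalized counts in the naïve libraries, above every TEM library. The summed NK cell list, mostly Prf1 in naïve libraries, was at 2945 to 4271 in naïve YFP-, 795 to 1029 in TEM YFP- and 2283 to 4012 in TEM YFP+. The part of NK cells in these values was not tested. Without naïve YFP+ replicate 2 the counts of the dendritic cell and NK cell lists were equal. The 5 erythroid genes tested had a median of 1.90, and none was called. None of 8 T cell genes was called, with a median of 0.16, and their sum was at 250880 to 291433 in TEM YFP- and 282210 to 303873 in TEM YFP+.

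Around the C1q chains, 13 genes of the classical complement pathway and of the receptors for immune complexes were listed and 11 tested. None rose in TEM YFP+ against TEM YFP- and 2 fell, Itgam and Fcgr2b (-3.34), the inhibitory Fc receptor, at 572, 335 and 739 normalized counts in TEM YFP- and 50.6, 32.1 and 78.9 in TEM YFP+. C4b (2.28) and C2 (1.33), the components that C1 cuts through its proteases, did not pass the test, C2 was called higher without naïve YFP+ replicate 2 (adjusted p = 0.0454, limma), and the median of the 11 was 0.00. In TEM YFP- against naïve YFP- 5 of the 11 rose and none fell, beside 21.2% of all genes called higher.

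The genes most like the C1q chains over the 12 libraries were named by Pearson's correlation of log2(normalized count + 1) with the mean of the 3 chains. They were Vcam1 (r = 0.996), an adhesion molecule, Itgad (0.996), an integrin chain, Slc11a1 (0.990), a metal transporter of phagosomes, Slc40a1 (0.986), the iron exporter ferroportin, and Mrc1 (0.979), the mannose receptor. Vcam1 was at 383, 528 and 367 normalized counts in TEM YFP-, 2556, 928 and 1381 in TEM YFP+ and 2534 in naïve YFP+ replicate 2, which follows the C1q pattern library by library. Over the 11 libraries without naïve YFP+ replicate 2 these r values were 0.995, 0.995, 0.988, 0.984 and 0.975. Of the other members, Csf1r had r = 0.875 with the mean of the chains, Lyz2 0.804, Mmp9 0.72, Adgre1 0.596 and Cd68 0.4. Like S100a8 and S100a9 were Aldh1a1 (r = 0.963), a retinal dehydrogenase, Hp (0.963), the haemoglobin carrier haptoglobin, Cd163 (0.948), the receptor for haptoglobin bound to haemoglobin, Wwtr1 (0.948), a transcriptional coactivator, and Timp3 (0.943), an inhibitor of metalloproteinases. Hp was at 0 in the 3 TEM YFP- libraries, at 13.1, 4.14 and 52.3 normalized counts in TEM YFP+ and at 66.9 in naïve YFP+ replicate 2. Mmp9 had r = 0.441 with the calprotectin pair, and 0.546 over the 11 libraries. The libraries share the group structure and depth, and these correlations describe the 12 libraries without a test.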

How the data were processed

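Bulk RNA-seq was analysed for 12 libraries of sorted spleen CD4+ T cells, 3 in each of 4 groups given by the sample titles. Per the study's methods, RNA was taken with the RNeasy Mini Kit, and libraries were made from total RNA with the TruSeq Stranded Total RNA kit and sequenced on a HiSeq2500. The authors mapped reads to mm10 with the DRAGEN pipeline, counted them per gene with Rsubread and scaled them with DESeq2 (versions not given in the sources used here), and deposited the scaled counts as a signal per gene. Counting by strand is not stated. Genes were given by NCBI gene ID, and 16749 of 17523 were named from RefSeq. No column was left out (0 unused).

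In every library 100% of values were whole multiples of 1 step, within 0.01 reads, which gave back the read counts. Deposited values were tested on log2(value + 1) with limma 3.58.1 (R 4.3.3) with trend, 4 group means and 12 libraries, after keeping genes with at least 5 in at least 3 libraries. Fold changes are on that scale and understate those of scarce genes. edgeR 4.0.16 and DESeq2 1.42.0 were run on the recovered reads as alternatives. The limma, edgeR and DESeq2 steps were tested on simulated data. With 40974124 to 57822269 reads per library, 3 reads are the floor, and intervals from counts cover counting error only. Lengths are exon unions of GENCODE M21, which need not be the annotation the authors counted on.

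The 10 genes and the lists of macrophage, monocyte, neutrophil, dendritic, NK, B, T, erythroid and platelet, and complement genes were chosen with earlier results of these data known. Named genes were the 10 members, the label checks, the 4 most abundant genes of the macrophage, monocyte and neutrophil lists and the 5 genes most correlated with the C1q chains and with S100a8 and S100a9. One label check and one gene of a marker list are not reported here. Other genes named from lists were chosen after their values were seen.

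Deviations from group means of same-numbered libraries correlated at 0.306, 0.491 and 0.36 (naïve YFP+ with YFP-), 0.18, 0.338 and 0.356 (TEM YFP+ with YFP-) and 0.168, 0.137 and 0.232 (TEM with naïve YFP-), so numbers were taken as pairs there. For TEM with naïve YFP+ the correlations were 0.204, -0.02 and 0.056, and numbers were not read as pairs. The main fit used no pairing in any comparison. The replicate block was fitted over all 12 libraries and so entered TEM YFP+ against naïve YFP+ as well. Alternatives were other prior counts (0.1 and 5), no filter, a mean of at least 10, TMM factors, the compared libraries alone, replicate number as a block and leaving out each library. Leaving out naïve YFP+ replicate 2 where it is not compared, and leaving out both naïve libraries numbered 2, was chosen after seeing the data. The authors' own comparisons were not used.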

Additional observations from a re-analysis of the deposited data

Results flagged for a closer look

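The YFP difference of 2 transcripts differed between TEM and naïve cells by the interaction term of limma. Adgre1 had a log2 fold change of -2.99 in TEM cells and 1.59 in naïve cells, a difference of -4.59 (adjusted p = 0.0191), with YFP+ lower in 3 of 3 TEM pairs and higher in 3 of 3 naïve pairs. Cd68 had -2.67 in TEM cells and 0.32 in naïve cells, a difference of -2.99 (adjusted p = 0.0216), with YFP+ lower in 3 of 3 TEM pairs and higher in 2 of 3 naïve pairs. Without naïve YFP+ replicate 2 the naïve values were 0.70 for Adgre1 and -0.26 for Cd68, and both interactions were still called. Leaving out other single libraries ended both calls in 3 cases and that of Cd68 in 2 more, with adjusted p of 0.0502 to 0.0705. Conventional dendritic cell genes fell in the same TEM libraries, and their part in both results was not tested.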

How the results depend on the processing

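With 3 libraries per group, 1 library can decide a call. Over leaving out 1 library each, the number of the 10 transcripts called ran from 1 to 5 in TEM YFP+ against TEM YFP- (3 with all), 1 to 10 in TEM YFP+ against naïve YFP+ (2), 5 to 7 in TEM YFP- against naïve YFP- (5) and 0 to 3 in the interaction (2). It was 0 in each case for naïve YFP+ against YFP-. Genes called over the table ran from 0 to 1 in naïve YFP+ against YFP- (1) and from 255 to 480 in the interaction (483), with 318 without TEM YFP- replicate 1 and 255 without TEM YFP- replicate 3. The single call of the naïve comparison became 2 with a prior count of 0.1, 2 with the replicate block, 8 with DESeq2, 0 with the 6 libraries alone and 0 without both naïve libraries numbered 2. In TEM YFP+ against TEM YFP-, 6 of the 10 were called with the 6 libraries alone and 5 without both naïve libraries numbered 2. In TEM YFP+ against naïve YFP+, 1 was called with a prior count of 0.1, the 6 libraries alone, edgeR or DESeq2, and 10 without both naïve libraries. In TEM YFP- against naïve YFP- that removal gave 8. Beyond the libraries left out, the cause was not tested. With the replicate block, the pairing moved the transcripts called in TEM YFP- against naïve YFP- from 5 to 7 and changed the call of no other of the 10.

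No result called over all 12 libraries changed direction. Among uncalled values, S100a8 in the naïve comparison turned to -0.13 with a prior count of 0.1 and -0.21 without both naïve libraries numbered 2, and Mmp9 there to -0.76. S100a9 in TEM YFP+ against naïve YFP+ turned to -0.15 with edgeR and -0.15 with DESeq2, and the interaction of C1qc to -0.66 and -0.67. Without both naïve libraries the interaction of C1qb was 0.32. Over leaving out 1 library each, the naïve log2 fold changes ran from -0.014 to 1.79 for Lyz2, -0.46 to 2.89 for C1qc, -0.26 to 0.76 for Cd68, -1.17 to 1.91 for S100a8, -0.82 to 2.84 for S100a9 and -0.85 to 1.25 for Mmp9, each lowest without naïve YFP+ replicate 2. The interactions ran from -2.08 to 0.70 for C1qa, -2.03 to 1.13 for C1qb and -1.09 to 2.26 for C1qc. In TEM cells the fitted log2 fold change of S100a8 ran from 2.39 with a prior count of 5 to 6.46 with 0.1. DESeq2 called it (adjusted p = 0.0324). Depth limits this gene, with at most 2 reads in a TEM YFP- library.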
